A study of Mus musculus with 2 samples.

Results

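Amino acid transporters were described through 10 genes, picked by symbol out of the 28692 genes counted: Slc3a2, Slc7a5, Slc7a1, Slc7a11, Slc7a7, Slc38a2, Slc38a5, Slc1a5, Slc6a6 and Slc6a9. The study asked how endothelial loss of Flcn, the gene of folliculin, affects the separation of blood and lymphatic vessels. Single-cell RNA was counted in CD31+ cells of the mesentery at postnatal day 8 (P8), isolated with magnetic beads and pooled from 3 mice per library. The library labels give the strain as C57BL/6, and the paper describes repeated crossing to C57BL/6 J. Control mice gave 1 library and Flcn iΔEC mice the other; in the latter the Cdh5-BAC-CreERT2 driver deletes both Flcn flox alleles in endothelial cells. Pups of both groups received 40 μg of 4-hydroxytamoxifen under the skin 4 times, first at P2, then at P3.5 and P5, and last at P6.5. Beyond the word control, the alleles of the control mice were not given in the sources used here.

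The control library held 6814 cells and 64639756 unique molecular identifiers (UMIs, each one counted RNA molecule), with a median of 7283 UMIs per cell. For the Flcn iΔEC library the numbers were 4459 cells, 60805779 UMIs and a median of 8587 per cell. Levels are given as CPM (counts scaled to a total of 1000000 UMIs) summed over the cells of a type, with exact Poisson 95% intervals in parentheses, ratios of CPM with exact conditional 95% intervals, and shares of cells with exact Clopper-Pearson 95% intervals. There was 1 library per genotype and no replicate, so no test was possible, and each interval covers counting error only. Genes of the sex chromosomes differed between the libraries: control cells held 9 UMIs of Xist and 15535 of 4 Y-linked genes, and Flcn iΔEC cells held 63462 of Xist and 17 of the Y-linked genes. Sex and genotype therefore cannot be told apart, and Slc38a5 is the X-linked gene among the transporters. Cell barcodes found in both libraries numbered 6. Flcn itself was counted at 10.2 CPM (95% interval 8.64 to 12.1) in control and 9.74 CPM (95% interval 8.60 to 11.0) in Flcn iΔEC endothelial cells, from 143 and 265 UMIs. Since 3′ tags are read, a transcript that lacks inner exons can still be counted, and this value does not check the deletion.

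Amino acids cross the cell membrane through carriers of several families. The heavy chain CD98 (Slc3a2) brings light chains such as LAT1 (Slc7a5), y+LAT1 (Slc7a7) and xCT (Slc7a11) to the surface, where they exchange 1 amino acid for another, whereas CAT1 (Slc7a1) takes up arginine and lysine and the sodium-coupled carriers SNAT2 (Slc38a2), SNAT5 (Slc38a5), ASCT2 (Slc1a5), TauT (Slc6a6) and GlyT1 (Slc6a9) move neutral amino acids, taurine or glycine. Folliculin acts on lysosomes, where amino acid supply is sensed by mTORC1, and it holds the transcription factors TFE3 and TFEB in the cytoplasm. Several of these carriers are known targets of ATF4, the transcription factor of the integrated stress response, which is set off by amino acid shortage.

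Endothelial cells were those with at least 2 UMIs of Cdh5, the gene of VE-cadherin. The gate took 566 of 6814 control cells and 892 of 4459 Flcn iΔEC cells, whereas 6084 and 3430 cells had 0 Cdh5 UMIs and 164 and 137 cells had 1 and entered no type. Most cells of both libraries thus lacked this endothelial marker, though isolated as CD31+. Just inside the gate, at 2 UMIs, lay 22 and 21 cells, of which 45.5% and 47.6% had a UMI of Slc6a6, against 37.2% and 36.5% of the cells just outside. Such a gate favours deep cells: median UMIs were 16127 and 24415 inside it and 7062 and 7654 among cells without Cdh5. A UMI of Ptprc, the pan-leukocyte marker, was present in 32.5% of control and 21.9% of Flcn iΔEC gated cells, and the 6 B cell markers summed to 189.9 and 66.5 CPM there. Their part in the levels below was not tested, and cells with Ptprc were left out only for ratios between the libraries.

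The gated cells formed 14 clusters, of which 10 were named from marker genes and 4, with 15.9% of control and 10.8% of Flcn iΔEC cells, stayed unnamed. Among these, clusters of 40 and 55, 21 and 12, and 15 and 8 cells had Ptprc in 87.4%, 97.0% and 100% of cells. Their leading genes included Klrk1 and Il2rb, Ms4a1 and Igkc, and Cd3d and Cd8a, which are leukocyte genes. All unnamed gated cells stayed in the sums over the gate. Cells without Cdh5 formed 22 clusters, of which 16 were named as 11 types and 6, with 12.7% and 16.3% of the cells, were not. Absence of Cdh5 UMIs did not exclude endothelial cells: 1 of the 6, with 47 and 81 shallow cells, had Ccl21a, Cldn5, Sox18 and Ramp2 among its leading genes. Its part in the values of cells without Cdh5 was not tested. Naming limits were chosen with the clusters in view, and the transporters were kept out of the clustering. Venous-like cells numbered 73 and 123, arterial-like 52 and 110, and capillary-like 29 and 17 in control and Flcn iΔEC libraries. A cluster with Cxcl12 and Rbp7 among its leading genes, and with markers of arteries and of capillaries, had 128 and 46 cells. Lymphatic capillary-like cells numbered 43 and 156, lymphatic collecting-like 21 and 121, lymph node sinus-like 18 and 43, high endothelial venule (HEV)-like 56 and 75, and proliferating endothelial cells 56 and 60. Prox1-positive venous-like cells numbered 0 and 45, so that cluster may be its library as much as a type. Its marker list was Prox1, Nr2f2, Ephb4, Cldn11, Neo1, H19 and Igf2, and the last 4 came from the study's own list on these cells. The name thus draws on the same data.

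The taurine carrier Slc6a6 differed widely between vessel types. Its level in control cells was 959 (911 to 1008) CPM in the arterial-like and capillary-like cells, 600.5 (515 to 697) in capillary-like and 291 (264 to 319) in venous-like cells. In the Flcn iΔEC library the same types had 656 (604 to 712), 869.8 (749 to 1005) and 143 (130.2 to 157) CPM. Small vessel types thus stood above venous-like cells in both libraries, though Prox1-positive venous-like cells, given next, reached the level of the arterial-like and capillary-like cells. Arterial-like cells were far lower, with 48.6 and 36.2 CPM, as were lymphatic capillary-like cells with 42.5 and 46.0. Lymphatic collecting-like cells, with 126 and 205 CPM, stood above lymphatic capillary-like cells in each library without overlap of the intervals. In arterial-like cells single cells carried much of the count: 1 Flcn iΔEC cell held 49.5% of the UMIs, and without it the level was 18.4 CPM, while the mean of each cell's CPM was 84.9 in control arterial-like cells.

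In the order of the control levels, the arterial-like and capillary-like, capillary-like, venous-like and next epithelial-like cells (without Cdh5, 192 CPM) did not overlap with each other. From there down each interval overlapped that of the next type. In the Flcn iΔEC library the 17 capillary-like cells stood alone at the top, a gap that rests on 1 cell, without which their level was 697 CPM, within the interval of the next type. There the arterial-like and capillary-like cells overlapped the Prox1-positive venous-like cells, which lay clear of lymphatic collecting-like cells below them. Lower gaps stood between proliferating endothelial and HEV-like cells and above erythroid-like cells. Lymphocytes were low, with 47.9 and 46.0 CPM in T cell-like and 66.1 and 60.8 CPM in B cell-like cells, and erythroid-like cells had 0 and 3 UMIs. The 3 genes most like Slc6a6, by Pearson's r of log2(CPM + 1) over 32 groups (18 types, by library, with at least 30 cells) and 11947 genes, were Stard3 (0.88), Gskip (0.85) and Aldh3a2 (0.85).

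**Figure D1:**
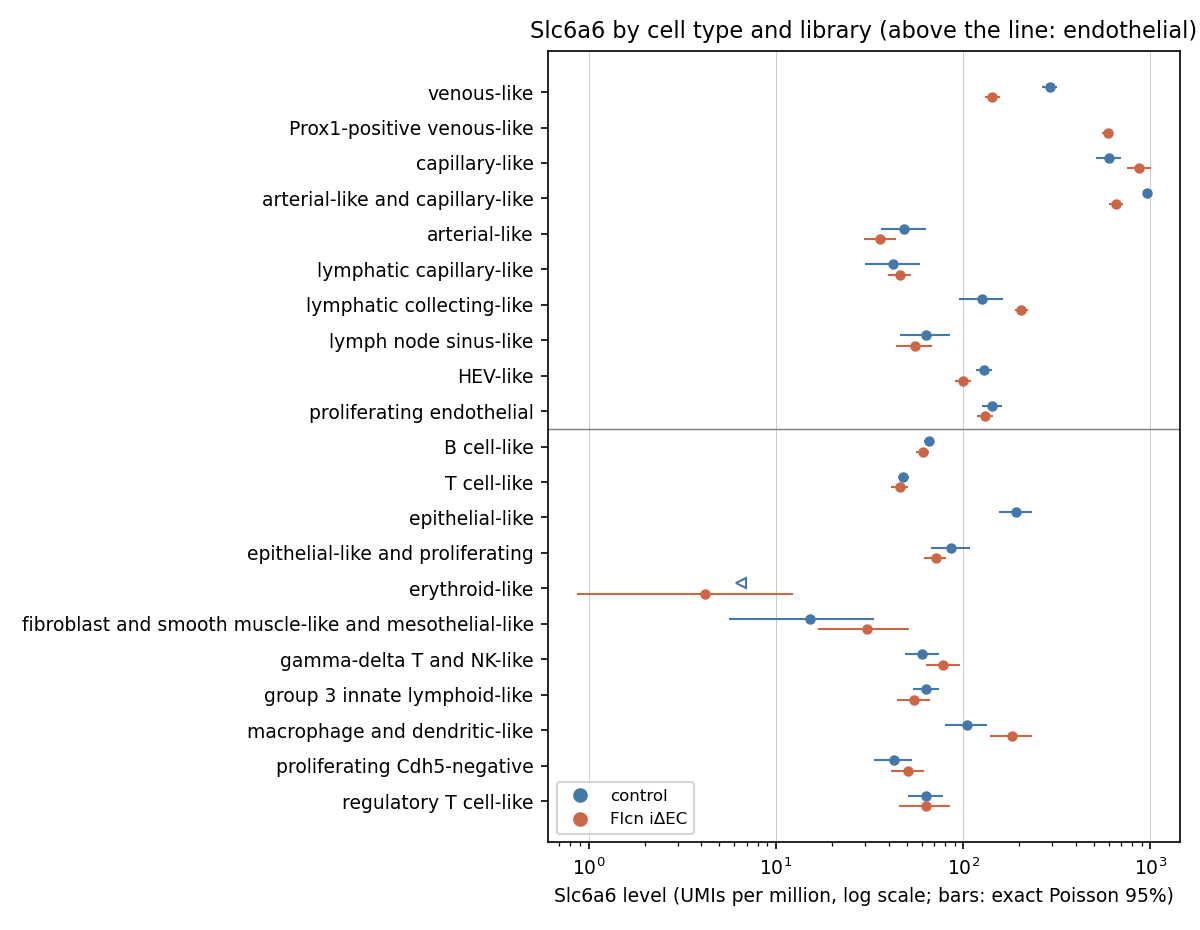
Level of Slc6a6 in CPM (log axis) in each named cell type with at least 10 cells, control and Flcn iΔEC libraries in blue and red, with exact Poisson 95% intervals; the open triangle marks the 3-count limit for a count of 0. Control values run from 959 CPM in arterial-like and capillary-like cells to 0 in erythroid-like cells, and arterial-like cells lie at 48.6 and 36.2 CPM.

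Venous-like cells, taken apart from the Prox1-positive venous-like cells, had less Slc6a6 in the Flcn iΔEC library. The level was 291 CPM (95% interval 264 to 319) from 444 UMIs in control and 143 CPM (95% interval 130.2 to 157) from 458 UMIs in Flcn iΔEC cells, a 2.03-fold lower level (ratio 0.492, 0.431 to 0.562). The drop rests on that division of the venous cells: with both clusters pooled, 168 Flcn iΔEC cells had 278 CPM (263 to 293) and the ratio was 0.956 (0.857 to 1.07) with 1 inside its interval. After thinning each cell to 2000 UMIs, 26 of 73 control cells, or 35.6% (24.7 to 47.7), and 24 of 122 Flcn iΔEC cells, or 19.7% (13.0 to 27.8), kept a UMI of the gene. Without thinning these shares were 83.6% (73.0 to 91.2) and 68.3% (59.3 to 76.4), and T cell-like cells had thinned shares of 9.29% (8.12 to 10.6) and 8.99% (7.27 to 11.0) at median depths of 7424 and 7664 UMIs, against 15478 and 19758 in venous-like cells. Of the 10 transporters, 6 had at least 50 UMIs over both libraries and Slc6a6 was the 1 past 2-fold, where 8.14% of all 8184 genes were past it, so the count of members is near what single genes gave. The fold lies at the limit: the ratio was 0.518 with CPM over genes other than mitochondrial, ribosomal protein and hemoglobin genes, 0.507 without the cell with the most Slc6a6 in each library, and 0.512 at a finer clustering, each a ratio just short of 2-fold. Ptprc was detected in 11.0% and 4.07% of these cells, and without those cells the ratio was 0.458. Innate lymphoid markers summed to 417 and 267 CPM and the 4 epithelial markers to 92.9 and 26.9 CPM in control and Flcn iΔEC venous-like cells, and their part in the ratio was not tested. Without integration of the libraries 63 control cells and 1 Flcn iΔEC cell were named venous-like, so no ratio could be had that way.

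The other endothelial types did not share one direction. The ratio of Slc6a6 between Flcn iΔEC and control cells was 0.684 (0.621 to 0.754) in arterial-like and capillary-like cells, 0.776 (0.674 to 0.892) in HEV-like cells and 0.918 (0.784 to 1.08) in proliferating endothelial cells. It was 1.62 (1.23 to 2.16) in lymphatic collecting-like and 1.45 (1.17 to 1.79) in capillary-like cells. The last value turned with the clustering, to 0.774 at resolution 1.6, where more cells were named capillary-like. In arterial-like cells the ratio of 0.744 (0.530 to 1.05) fell to 0.432 with the mean of each cell's CPM and to 0.350 at resolution 0.4. In lymph node sinus-like cells it was 0.869 (0.594 to 1.29), with 1.499 for the mean of each cell's CPM and 0.572 without integration. Differences between these ratios were not tested.

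Prox1-positive venous-like cells, all from the Flcn iΔEC library, differed from the venous-like cells of the same library in 3 of the 6 measured transporters. Slc6a6 was at 591 CPM (95% interval 551 to 633) against 143 CPM, a ratio of 4.13 (3.68 to 4.64). The arginine carrier Slc7a1 was at 137 CPM (95% interval 118 to 158) against 58.7 CPM, a ratio of 2.34 (1.90 to 2.88). The heavy chain Slc3a2 went the other way, at 55.2 CPM (95% interval 43.5 to 69.1) against 137 CPM, which is 2.48-fold lower (ratio 0.403, 0.311 to 0.515). Innate lymphoid markers summed to 83.5 CPM in the Prox1-positive cells against 267 CPM in these venous-like cells, and epithelial markers to 5.81 against 26.9 CPM. Their part in the ratios was not tested. Past 2-fold were 9.61% of all 7984 genes in this comparison. Slc38a2, Slc7a7 and Slc1a5 had ratios of 1.22, 0.992 and 0.741.

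Set beside the veins of the control library, the Prox1-positive cells had more Slc6a6 (591 against 291 CPM) and Slc7a1 (137 against 55.6), while Slc3a2 was 55.2 against 72.6 CPM with overlapping intervals. After thinning, 28 of 44 Prox1-positive cells (63.6%, 47.8 to 77.6) kept a UMI of Slc6a6. Without thinning the share was 97.8% (88.2 to 99.9). Prox1, the gene of the transcription factor that sets lymphatic identity, was at 494 CPM in these cells and at 50.4 and 152 CPM in control and Flcn iΔEC venous-like cells. Prox1 is in the marker list used to name these cells, so its level there is no separate check of the name. A single cell held 15948 of the cluster's 16011 hemoglobin UMIs, and CPM less hemoglobin, mitochondrial and ribosomal protein genes gave ratios of 4.09 for Slc6a6, 2.31 for Slc7a1 and 0.398 for Slc3a2. Ptprc was detected in 4.44% of them, and their median depth was 24691 UMIs.

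**Figure D2:**
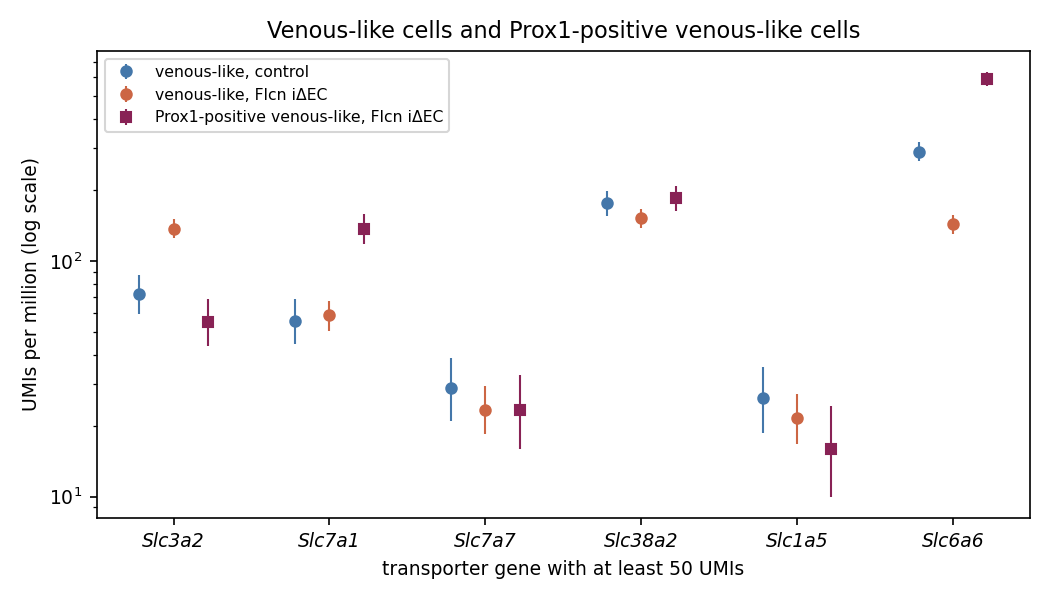
Levels in CPM (log axis) of the 6 transporters with at least 50 UMIs, in venous-like cells of the control (blue) and Flcn iΔEC (red) libraries and in Prox1-positive venous-like cells (purple squares), with exact Poisson 95% intervals. Slc6a6 and Slc7a1 are highest in the Prox1-positive cells, and Slc3a2 is highest in Flcn iΔEC venous-like cells.

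Slc3a2, the shared heavy chain, was higher in arteries and veins of the Flcn iΔEC library. Arterial-like cells had 123 CPM (95% interval 103 to 145) in control and 281 CPM (95% interval 261 to 301) in Flcn iΔEC cells, from 139 and 768 UMIs, a ratio of 2.28 (1.90 to 2.76). It was the 1 of 5 measured transporters past 2-fold, beside 5.37% of all 7319 genes. Thinned to 2000 UMIs, 13.7% (5.70 to 26.3) of the control cells and 42.7% (33.3 to 52.5) of those from Flcn iΔEC mice kept a UMI of Slc3a2, and 80.8% (67.5 to 90.4) and 92.7% (86.2 to 96.8) had one without thinning. T cell-like cells, which hold the gene too, kept one in 15.9% (14.5 to 17.5) and 16.8% (14.5 to 19.2), and median depths of arterial-like cells were 14808 and 18171 UMIs. The T cell level of Slc3a2 was 96.4 and 99.2 CPM. Ptprc was detected in 19.2% and 6.36% of the arterial-like cells, and without those cells the ratio was 2.29. T cell markers summed to 49.5 and 28.2 CPM and innate lymphoid markers to 407 and 312 CPM there, and their part was not tested further. The ratio in arterial-like cells ranged from 2.16 to 2.38 over the settings tried.

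Venous-like cells went from 72.6 CPM (95% interval 59.8 to 87.5) to 137 CPM (95% interval 125 to 151), a ratio of 1.89 (1.53 to 2.35) that reached 2.16 with the mean of each cell's CPM and was 1.55 (1.26 to 1.92) with the Prox1-positive cells pooled in. Capillary-like cells had 148 and 249 CPM from 43 and 53 UMIs, a ratio of 1.68 (1.10 to 2.57), and arterial-like and capillary-like cells 120.4 and 142 CPM, a ratio of 1.18 (0.933 to 1.48). Lymphatic vessels did not show higher values: lymphatic capillary-like cells had 59.7 and 46.7 CPM and lymphatic collecting-like cells 49.7 and 35.8, with ratios of 0.782 (0.574 to 1.08) and 0.721 (0.453 to 1.20). The median log2 ratio of all genes was -0.17 and -0.14 in these types, so lower values were common among all genes there. HEV-like, sinus-like and proliferating endothelial cells had ratios of 0.999, 0.900 and 1.08. Whether the ratios of blood and lymphatic types differ was not tested.

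Among control cells the highest Slc3a2 level was that of group 3 innate lymphoid-like cells, 189 (172 to 207) CPM, and each type overlapped the next from there down to erythroid-like cells with 23.9 (12.0 to 42.8). In the Flcn iΔEC library arterial-like cells stood first and overlapped the capillary-like cells, which came second, and gaps in the order lay between HEV-like (134 CPM) and B cell-like cells (109.5 CPM) and above erythroid-like cells. B cell-like cells had 139 and 109.5 CPM, a ratio of 0.786 (0.730 to 0.845) where the median log2 ratio of all genes was -0.11. The genes most like Slc3a2 over the same 32 groups were Ifngr1 (0.91), Tspo (0.90) and Per1 (0.90).

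**Figure D3:**
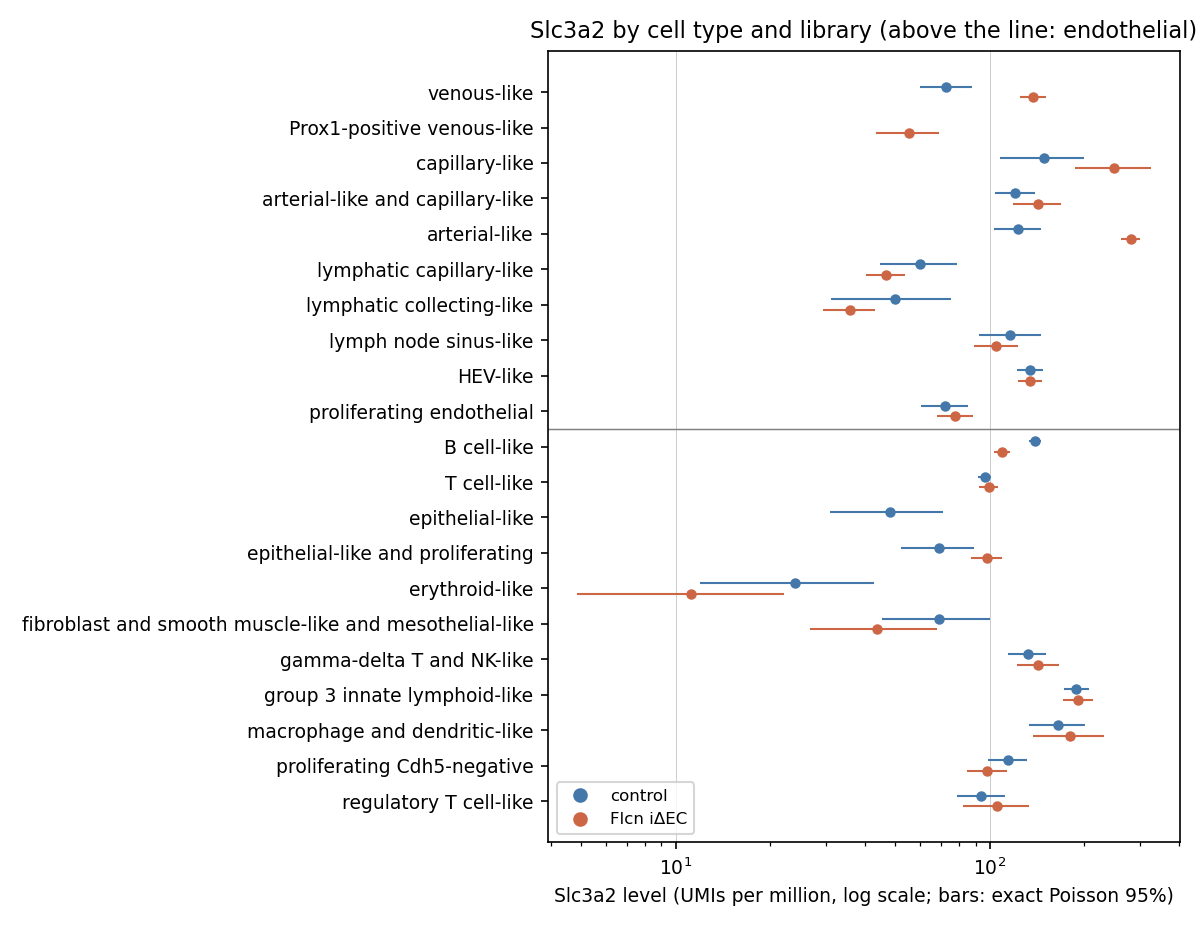
Level of Slc3a2 in CPM (log axis) by named cell type and library, with exact Poisson 95% intervals, drawn as for Slc6a6. The intervals of the libraries lie apart in arterial-like and venous-like cells, with Flcn iΔEC cells higher, and in B cell-like cells, with control cells higher.

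Promoter windows of 250 bases before to 50 bases after the start, from RefSeq on GRCm38.p6, were found for 7 of the 10 transporters. They are shown for Slc3a2, which moved in arteries, for Slc7a11, with a motif on each strand, and for the X-linked Slc38a5. Motifs searched on both strands were TGATGNAA, the core bound by ATF4 with its partners, and CACGTG, the palindromic core bound by TFE3 and TFEB, and the letters found are in capitals.
Slc3a2 (chr19:8713848-8714147, minus strand): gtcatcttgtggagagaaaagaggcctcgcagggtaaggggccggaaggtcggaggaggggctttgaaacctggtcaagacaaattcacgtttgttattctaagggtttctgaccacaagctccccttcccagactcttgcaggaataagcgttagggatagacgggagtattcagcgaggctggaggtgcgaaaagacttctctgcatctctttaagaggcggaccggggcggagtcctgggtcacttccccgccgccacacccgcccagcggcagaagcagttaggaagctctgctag
Slc7a11 (chr3:50443564-50443863, minus strand): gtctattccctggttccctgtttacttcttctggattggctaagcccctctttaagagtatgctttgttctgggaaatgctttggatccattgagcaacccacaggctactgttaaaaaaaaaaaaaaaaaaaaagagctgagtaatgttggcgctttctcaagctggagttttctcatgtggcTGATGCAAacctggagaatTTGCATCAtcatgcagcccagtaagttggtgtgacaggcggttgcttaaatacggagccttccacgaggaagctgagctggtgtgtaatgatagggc
Slc38a5 (chrX:8271131-8271430, plus strand): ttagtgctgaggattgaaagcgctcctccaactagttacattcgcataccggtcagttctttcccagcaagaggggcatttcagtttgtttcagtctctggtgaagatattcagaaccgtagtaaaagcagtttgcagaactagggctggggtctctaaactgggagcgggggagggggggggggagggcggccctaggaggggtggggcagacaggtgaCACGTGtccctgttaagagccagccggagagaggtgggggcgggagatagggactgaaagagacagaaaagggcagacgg
TGATGNAA stood in 3.97% and CACGTG in 7.15% of all 32851 windows, and the motifs, which could share their TG ends, did not overlap in the windows shown. The Slc7a11 window held TGATGNAA 2 times, once on each strand, and Slc7a7 held it in 2 of its 5 windows. These Slc7a7 windows overlap and share a match, so they are not separate finds. CACGTG was in the window of Slc38a5 and in none of the others searched for these genes, and the Slc3a2 window held neither. That window lies inside Slc3a2 as GENCODE release M21 places the gene (8706882 to 8723369, minus strand). The end of the gene at 8723369 was not searched, so the absence holds for the printed window only. A match is a description of letters, not of a site in use.

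Among the light chains, LAT1 (Slc7a5) was lower in endothelial cells as a whole than in cells without Cdh5. Summed over the gate, endothelial cells had 4.30 CPM (95% interval 3.28 to 5.53) in control and 3.05 CPM (95% interval 2.43 to 3.78) in Flcn iΔEC cells, against 18.3 and 19.8 CPM in cells without Cdh5, which is 4.26-fold and 6.502-fold lower. Proliferating cells without Cdh5 (25.1 and 23.1 CPM) and B cell-like cells (20.2 and 22.7) were among the highest, with overlapping intervals. The 1 gap in the control order lay below T cell-like cells (15.1 CPM), and HEV-like cells came next with 7.01 CPM. Low levels were not particular to vessels. Group 3 innate lymphoid-like cells had 4.96 and 7.86 CPM, and control epithelial-like cells 1.92 CPM. Fibroblast and smooth muscle-like and mesothelial-like cells had 5.09 and 10.9 CPM, and macrophage and dendritic-like cells 17.1 and 0 CPM. The Flcn iΔEC order had no gap, and its highest vessel level, 12.5 (6.23 to 22.3) CPM in arterial-like and capillary-like cells, overlapped those of T cell-like (16.7, 14.0 to 19.8) and B cell-like cells (22.7, 19.8 to 25.8). These vessel cells had 3.15 CPM in control, and 5 and 11 UMIs gave a ratio of 3.96 (1.27 to 14.5). In the same library capillary-like cells had 9.40 CPM from 2 UMIs and HEV-like cells 6.64 CPM. Venous-like cells had 2 and 4 UMIs and arterial-like cells 0 and 1, too few for a fold. No endothelial type reached 50 UMIs of Slc7a5 over both libraries. Its most similar genes were Tfrc (0.83), Jakmip1 (0.81) and Mgst2 (0.79), the first the gene of the transferrin receptor.

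The y+LAT1 gene Slc7a7 was in all endothelial types and nearly absent from T cells. Endothelial cells had 25.3 CPM (95% interval 22.7 to 28.1) in control and 19.5 CPM (95% interval 17.9 to 21.2) in Flcn iΔEC cells, T cell-like cells 1.08 and 0.765 CPM and group 3 innate lymphoid-like cells 1.24 and 0.561. In control cells lymph node sinus-like cells came first with 57.4 (40.8 to 78.5) CPM, overlapping the arterial-like and capillary-like cells (37.8, 28.9 to 48.7), and unnamed clusters without Cdh5 had 49.7 and 22.1 CPM in control and Flcn iΔEC cells. The Flcn iΔEC order began outside the endothelium, with epithelial-like and proliferating cells at 34.8 (28.6 to 42.0) CPM. These overlapped the arterial-like and capillary-like cells, which came next with 30.6 (20.2 to 44.6) CPM. In the Flcn iΔEC library sinus-like cells had 22.4 (15.4 to 31.5) CPM, from 39 and 33 UMIs, a 2.56-fold lower level (ratio 0.391, 0.238 to 0.637). This was the 1 of 6 measured transporters past 2-fold in sinus-like cells, beside 8.15% of all 5866 genes.

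Sinus-like cells carried RNA of blood cells in both libraries, in unlike amounts. Ptprc was detected in 66.7% and 37.2% of them, the 6 markers of group 3 innate lymphoid cells summed to 1706 and 1080.3 CPM (mostly Tmem176b), and the 9 markers of macrophages and dendritic cells to 45.6 and 70.7 CPM (led by Cd68 in control and Mrc1 in Flcn iΔEC cells). The macrophage sum was thus higher and the innate lymphoid sum lower in the library with less Slc7a7. Too few control sinus-like cells lacked Ptprc for a ratio without it, and the part of innate lymphoid or macrophage RNA was not tested. In the other endothelial types the ratio of Slc7a7 lay between 0.691 (HEV-like) and 1.10 (collecting-like). Its most similar genes were Atp6v0a1 (0.91), Eif4ebp1 (0.90) and Sept10 (0.90).

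The cystine carrier gene Slc7a11, whose promoter window is printed above, was found in very few cells. Cells named macrophage and dendritic-like held 117 of the 121 control and 47 of the 48 Flcn iΔEC UMIs in cells without Cdh5, and these lay in the 8 and 9 cells with at least 20 UMIs of S100a8, a gene of neutrophils, which had 0 UMIs of the macrophage gene C1qa. That division was chosen after the values had been seen. The other 96 and 38 cells of the cluster had 0 UMIs of Slc7a11, which allows up to 5.77 and 12.1 CPM at 3 counts. A single control cell held 53 of the UMIs. Endothelial cells had 13 and 28 UMIs in all, 0.931 and 1.03 CPM, of which HEV-like cells held 8 and 9. The genes most like it were BC100530 (0.95), S100a8 (0.95) and Stfa1 (0.95), neutrophil genes among them.

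CAT1 (Slc7a1), the main arginine carrier of endothelium, was higher in collecting lymphatic than in small blood vessel cells. Lymphatic collecting-like cells had 85.8 (60.7 to 118) CPM in control and 94.5 (84.0 to 106) in Flcn iΔEC cells, venous-like cells 55.6 (44.4 to 68.8) and 58.7 (50.6 to 67.7), and arterial-like and capillary-like cells 17.0 (11.2 to 24.8) and 30.6 (20.2 to 44.6). Each control level overlapped the next in the order, whereas in the Flcn iΔEC library the Prox1-positive venous-like cells and then the collecting-like cells stood apart above the rest. Ratios between the libraries were near 1 in venous-like (1.06, 0.813 to 1.38), arterial-like (1.04, 0.735 to 1.501) and HEV-like cells (0.997, 0.758 to 1.32). In arterial-like and capillary-like cells it was 1.80 (1.02 to 3.19) from 27 UMIs in each library, and 0.941 without integration of the libraries. Regulatory T cell-like cells had 78.4 and 63.3 CPM. The most similar genes were Ints8 (0.89), Nol10 (0.89) and Pip4k2c (0.88).

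SNAT2 (Slc38a2), a carrier of small neutral amino acids, was spread over all cell types but the erythroid-like cells. Endothelial types ranged from 97.3 CPM in arterial-like to 175 in venous-like control cells, and from 120.3 in collecting-like to 184 in Prox1-positive venous-like Flcn iΔEC cells. Lymphocytes were higher, with 222 (215 to 229) and 257 (246 to 269) CPM in T cell-like cells, and erythroid-like cells had 3 UMIs in each library. The ratio between the libraries was furthest from 1 among endothelial types in capillary-like cells, 1.49 (0.896 to 2.49), and in arterial-like cells, 1.31 (1.06 to 1.64), and in no type past 2-fold. Outside the endothelium, macrophage and dendritic-like cells had 199 (164 to 238) and 100.1 (69.3 to 139.9) CPM, 1.98-fold lower, where the median log2 ratio of all genes was 0.12. That cluster differed in makeup between the libraries: macrophage markers summed to 4168 and 12829 CPM (mostly Lyz2), innate lymphoid markers to 738 and 409, T cell markers to 211 and 106 and B cell markers to 248 and 103 CPM. The S100a8-rich cells described for Slc7a11 were 8 of its 104 control and 9 of its 47 Flcn iΔEC cells. They held 63547 of 583704 and 92278 of 339549 UMIs. The part of these differences was not tested. Genes most like Slc38a2 were Sf3b1 (0.98), Sfpq (0.97) and Nufip2 (0.97), of which the first pair take part in splicing.

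SNAT5 (Slc38a5), with the printed CACGTG window, was at the limit of detection. It had 1 and 0 UMIs in endothelial cells and 4 and 6 in cells without Cdh5, 3 of them in erythroid-like cells in each library, at 6.53 (1.35 to 19.1) and 4.21 (0.867 to 12.3) CPM. Expression in endothelial cells was not detectable at this depth, where 3 counts stand for 0.215 and 0.110 CPM.

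ASCT2 (Slc1a5), a glutamine carrier, was highest in HEV-like cells. HEV-like cells had 102 (90.9 to 114) CPM in control and 98.4 (89.0 to 109) in Flcn iΔEC cells, with intervals that overlapped those of T cell-like cells (89.1 and 90.7). Arterial-like cells had 10.6 (5.48 to 18.5) and 9.87 (6.51 to 14.4) CPM, and venous-like cells 26.2 and 21.5. Capillary-like cells had 38.0 (18.9 to 67.9) and 94.0 (57.4 to 145) CPM from 11 and 20 UMIs. Ptprc was detected in 83.9% and 80.0% of HEV-like cells, whose 6 B cell markers summed to 419 and 112 CPM and whose 6 innate lymphoid markers to 1647 and 1252 CPM. The innate lymphoid-like cells had 70.7 and 62.3 CPM of Slc1a5, below the HEV-like cells without overlap of the intervals. The share of lymphocyte RNA in the HEV-like level was not tested. Lymphatic collecting-like cells had 5 and 64 UMIs, a ratio of 1.83 (0.744 to 5.82), and 2.45 without cells with Ptprc. In arterial-like and capillary-like cells the ratio was 0.996, but 0.418 at resolution 1.6 and 1.498 without integration, and in lymphatic capillary-like cells 1.29, but 2.33 without cells with Ptprc. The most similar genes were Rpsa (0.93), Snhg12 (0.92) and Cotl1 (0.92).

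GlyT1 (Slc6a9), a glycine carrier best known from glia, was counted mainly in lymphatic cells. Lymphatic collecting-like cells had 36.1 (20.7 to 58.7) CPM from 16 UMIs in control and 14.8 (10.9 to 19.8) from 46 UMIs in Flcn iΔEC cells. Lymphatic capillary-like cells had 17.2 (9.64 to 28.4) from 15 and 7.93 (5.49 to 11.1) from 34 UMIs, and these lymphatic types overlapped in each library. Venous-like cells had 0 and 2 UMIs, arterial-like cells 0 and 0, and B and T cell-like cells together 2 and 3. Fibroblast and smooth muscle-like and mesothelial-like cells had the highest level outside the vessels, from 8 and 4 UMIs. Its most similar genes were Plce1 (0.93), Hapln1 (0.87) and Ttyh1 (0.85), from 139 UMIs.

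Both lymphatic types had less Slc6a9 in the Flcn iΔEC library. The ratio was 0.411 (0.228 to 0.777) in collecting-like cells, a 2.44-fold lower level, and 0.461 (0.244 to 0.910) in lymphatic capillary-like cells, whose sum of UMIs fell short of 50. In collecting-like cells it was the 1 of 7 measured transporters past 2-fold, beside 13.3% of all 7205 genes, so the count says little of the transporters. Over the settings tried the ratio in collecting-like cells ranged from 0.239, without integration, which left 12 control cells in that type, to 0.490. Shares of cells with a UMI were 47.6% (25.7 to 70.2) and 29.8% (21.8 to 38.7) without thinning and 1 of 21 and 2 of 121 cells after it, too few to compare, and T cell-like cells had 1 cell with a UMI in each library. Median depths of collecting-like cells were 14916 and 22910.0 UMIs. In proliferating endothelial cells, whose Prox1 level was 85.5 and 338 CPM, Slc6a9 had 3 and 13 UMIs. Prox1 moved with Slc6a9 in the lymphatic types, with 1208 and 616 CPM in collecting-like cells (ratio 0.509, 0.463 to 0.562) and 514 and 328 CPM in lymphatic capillary-like cells (ratio 0.637, 0.573 to 0.711), and its part in the result was not tested.

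**Figure D4:**
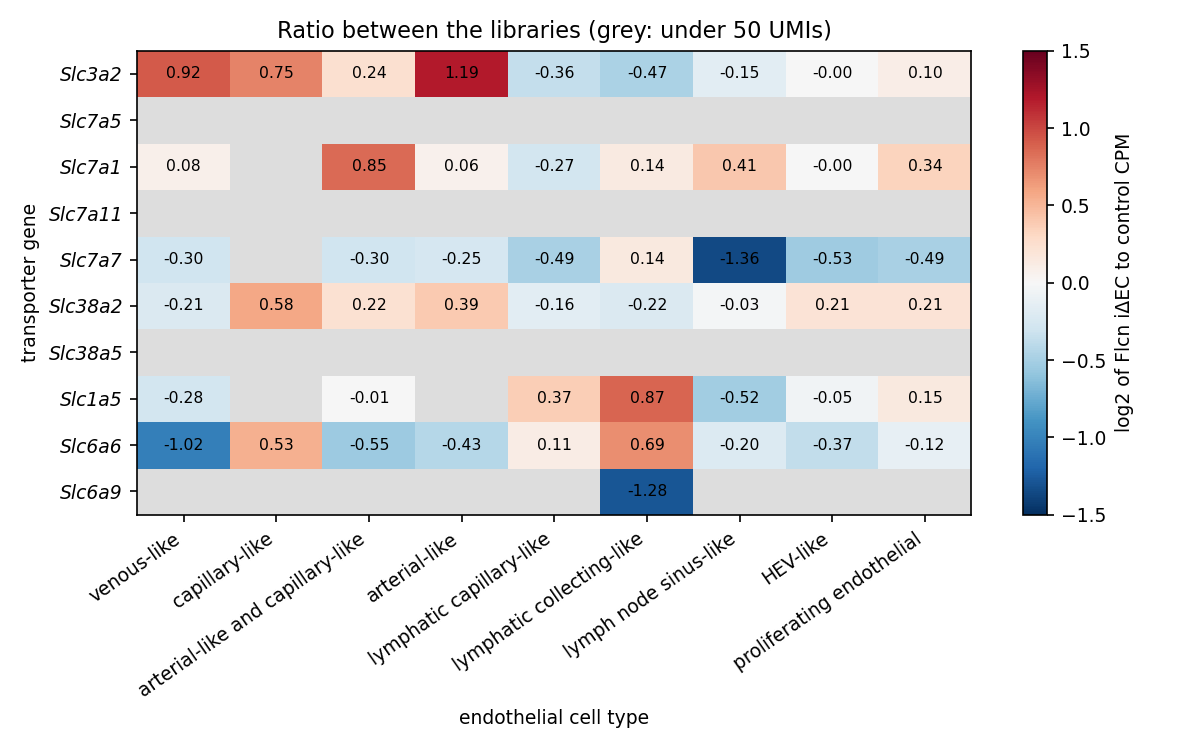
Log2 ratio of CPM between the Flcn iΔEC and control libraries for each transporter (rows) in 9 endothelial types (columns), grey where the UMIs of both libraries summed to under 50. Values past 1 or -1 are those of Slc3a2 in arterial-like, Slc7a7 in lymph node sinus-like, Slc6a6 in venous-like and Slc6a9 in lymphatic collecting-like cells.

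In the remaining endothelial types no measured transporter was past 2-fold between the libraries. This was 0 of 3 in capillary-like cells (7.89% of all genes past it), 0 of 6 in arterial-like and capillary-like cells (6.37%), 0 of 6 in lymphatic capillary-like cells (11.1%), 0 of 6 in HEV-like cells (4.43%) and 0 of 6 in proliferating endothelial cells (9.33%). With so few members these counts are near the background and are no result about the family. In the types without Cdh5 that had 10 cells in each library, no measured transporter was past 2-fold either, with 0 measured in erythroid-like, 1 in fibroblast and smooth muscle-like and mesothelial-like, and 4 to 7 in the other 8 types. Of all genes, from 0.410% (erythroid-like) to 9.30% (macrophage and dendritic-like) were higher and from 0.878% (innate lymphoid-like) to 17.2% (erythroid-like) lower past 2-fold in these types.

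Endothelial cells as a whole were then set against cells without Cdh5 within each library. Sums over the gate, here and above, hold the unnamed clusters with leukocyte genes too, and their part was not tested. In control cells 5 of 9 measured transporters were past 2-fold, beside 41.1% of all 13537 genes, and in Flcn iΔEC cells 4 of 9, beside 42.3% of 13649, shares near those of single genes. Slc6a6 was at 251 against 60.9 CPM in control and 152 against 57.3 in Flcn iΔEC cells, ratios of 4.12 (3.93 to 4.33) and 2.66 (2.51 to 2.81). Slc6a9 was at 3.08 against 0.305 and 3.90 against 0.472 CPM, ratios of 10.1 (5.51 to 19.6) and 8.25 (4.78 to 15.3). Both were thus higher in endothelial cells of each library, while Slc7a5 was lower in each, as given above.

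Slc7a7 was at 25.3 against 12.2 CPM in control and 19.5 against 10.3 CPM in Flcn iΔEC cells, past the limit in control (2.07, 1.81 to 2.37) and not in Flcn iΔEC cells (1.90, 1.65 to 2.19). Slc1a5 was at 47.2 against 84.4 and 36.6 against 75.3 CPM, past it in Flcn iΔEC cells (2.06-fold lower) and not in control cells (1.79-fold lower). Slc7a11 was 2.64-fold lower in control endothelial cells, at 0.931 against 2.46 CPM, where 117 of the 121 UMIs in cells without Cdh5 were those of the S100a8-rich cells. Median log2 ratios of all genes were 0.38 and 0.30 in these comparisons. When each cell weighed the same, the ratios of Slc6a6, Slc7a7 and Slc6a9 in control cells were 6.70, 4.03 and 19.2, that of Slc7a11 was 0.205, and those of Slc7a7 and Slc6a9 in Flcn iΔEC cells were 2.96 and 17.0. A CPM denominator less mitochondrial, ribosomal protein and hemoglobin genes brought Slc7a7 in control cells to 1.62.

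**Figure D5:**
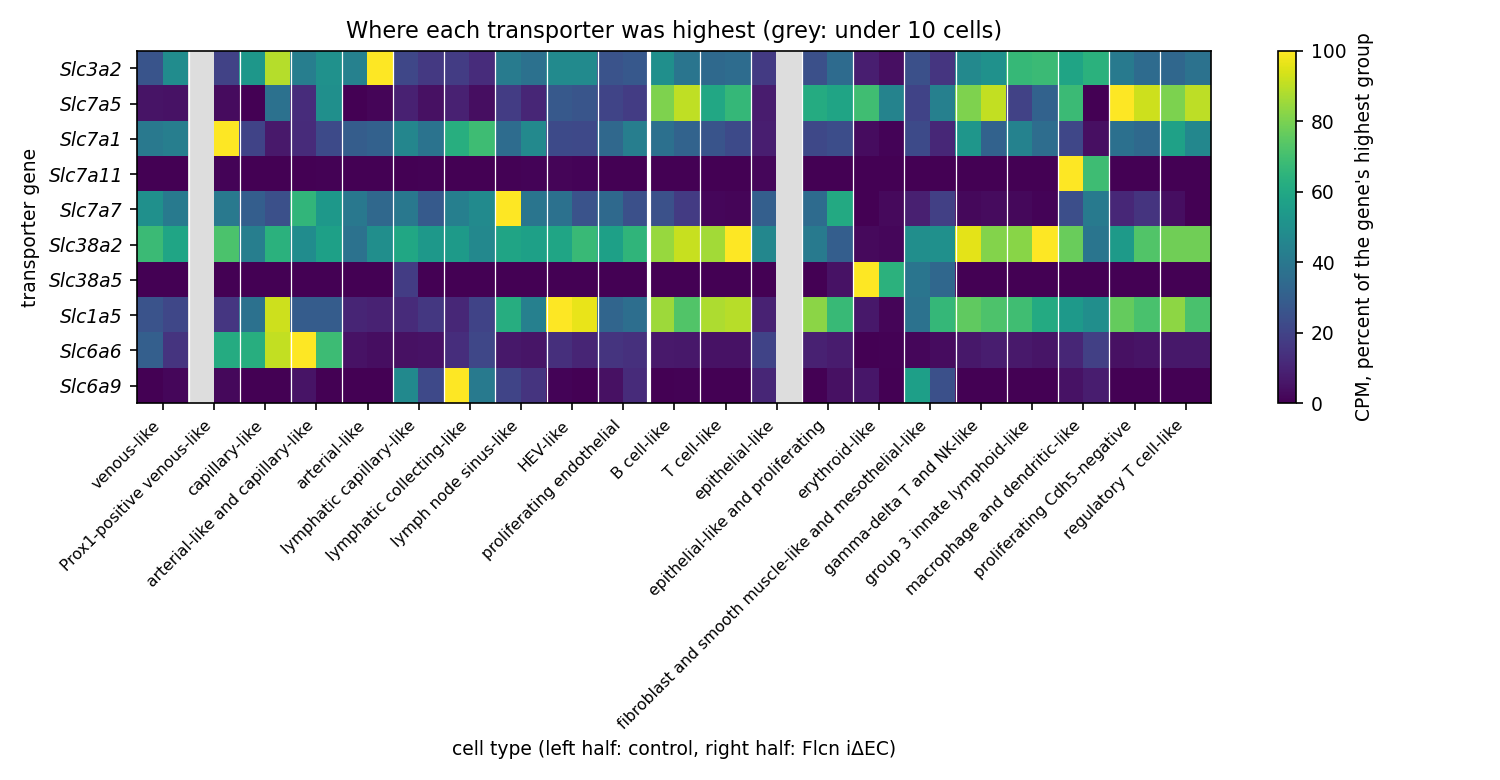
CPM of each transporter (rows) as a percent of its own highest group, by named cell type (columns; left of each pair control, right Flcn iΔEC; grey for fewer than 10 cells), endothelial types left of the thick line. Slc6a6 peaks in small blood vessels, Slc6a9 in lymphatic collecting-like cells, Slc7a11 in the macrophage and dendritic-like cluster and Slc38a5 in erythroid-like cells.

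Of 45 other amino acid transporter genes, few were measured in endothelial types, and Slc38a4 (SNAT4) stood out among the lymphatic ones. Lymphatic capillary-like cells had 17.2 CPM in control and 88.0 in Flcn iΔEC cells, a ratio of 5.11 (3.06 to 9.22), and collecting-like cells 54.2 and 136 CPM, a ratio of 2.52 (1.67 to 3.97). Sinus-like, HEV-like and proliferating endothelial cells had ratios of 2.32 (1.62 to 3.40), 9.26 (3.39 to 35.4) and 4.43 (2.46 to 8.65) for Slc38a4. Prox1 was also higher in 2 of these, with 4.78 and 21.2 CPM in HEV-like and 85.5 and 338 CPM in proliferating endothelial cells, but 227 and 202 CPM in sinus-like cells, and the part of lymphatic cells in those ratios was not tested. Of all genes, 4.82% were higher and 6.28% lower past 2-fold in lymphatic capillary-like, 6.44% and 6.83% in collecting-like, 3.60% and 4.53% in venous-like, and 2.94% and 2.43% in arterial-like cells. In lymphatic capillary-like cells 2 of 7 measured genes of the list were higher past 2-fold (Slc38a4, and Slc38a7 with a ratio of 2.74) and 1 was lower (Slc43a2, 2.14-fold lower), with a median log2 ratio of 0.29 beside -0.17 over all genes. T cell markers summed to 67.7 and 10.3 CPM and innate lymphoid markers to 142 and 72.1 CPM in control and Flcn iΔEC lymphatic capillary-like cells. Their part in the ratios of this type was not tested. Collecting-like cells had 3 of 7 higher (Slc38a4, Ctns with 3.71, interval 0.978 to 31.5 from 2 and 52 UMIs, and Slc38a11 with 2.67) and 1 lower (Slc43a2, 2.38-fold lower), with a median of 0.47 beside -0.14. In venous-like cells 1 of 6 was higher, the lysosomal cystine exporter Ctns (9.16 and 23.1 CPM, ratio 2.52), with a median of 0.29 beside -0.07. In arterial-like cells the 1 gene measured was not past the limit, and in the Prox1-positive against the venous-like cells 1 of 7 was lower (Slc38a6, 2.20-fold), beside 3.34% of all genes higher and 6.26% lower. Also lower past 2-fold were Slc38a3 in HEV-like cells (2.29-fold, with Slc38a4 the 2 of 11 past it) and Slc6a13 in proliferating endothelial cells (2.15-fold, with Slc38a4 the 2 of 6). Innate lymphoid markers summed to 642 and 229 CPM in control and Flcn iΔEC proliferating endothelial cells, and their part in the Slc6a13 value was not tested. Of all genes 2.77% were higher and 1.66% lower in HEV-like and 3.89% and 5.44% in proliferating endothelial cells. Medians of the list were -0.42 in arterial-like and capillary-like, -0.30 in sinus-like, -0.17 in HEV-like and -0.03 in proliferating endothelial cells. All genes had medians of -0.10, -0.06, 0.01 and -0.06 there. The 1 gene measured in arterial-like cells had a log2 ratio of 0.56.

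Of 22 genes of the integrated stress response, the pathway of ATF4, Gdf15, which codes for a secreted stress factor, was higher past 2-fold in all 9 endothelial types compared. Of the other 21 genes, 7 were past it, higher or lower, in at least 1 type. The share of all genes past it in at least 1 type was not counted. In single types that share ran from 4.43% (HEV-like) to 13.3% (lymphatic collecting-like), so the count of 7 is no result about the list. Venous-like cells had 22 and 1331 UMIs of Gdf15, 14.4 and 416 CPM, a ratio of 28.9 (18.99 to 46.2). The serine synthesis gene Phgdh (4.77), Trib3 (3.20) and Vldlr (2.86) were also higher there, 4 of 13 measured genes of 22, with 0 lower, beside 3.60% of all genes higher, and a median log2 ratio of 0.52 beside -0.07 over all genes. In arterial-like cells Gdf15 had 3 and 959 UMIs, a ratio of 132 (45.1 to 642), and was the 1 of 10 measured genes past 2-fold, beside 2.94% of all genes higher (median 0.41 beside -0.09).

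Lymphatic capillary-like cells had 3 of 13 higher (Gdf15 with 28.5, Phgdh with 3.77 and Trib3 with 2.19, median 0.72), and collecting-like cells 4 of 12 (Gdf15 with 155, Ddit4 with 7.73, Cebpb with 3.29 and Vldlr with 2.71, median 0.58), with 0 lower in each, beside 4.82% and 6.44% of all genes higher. Gdf15 was the 1 of 7 past 2-fold in arterial-like and capillary-like cells (ratio 55.7, median -0.04). In sinus-like cells 2 of 8 were past it, Gdf15 (58.5) and Nupr1 (3.34). In proliferating endothelial cells 4 of 16 were higher, Gdf15 (49.8), Vldlr (6.87), Phgdh (3.28) and Trib3 (2.47), and Cebpg was 2.05-fold lower. Prox1 (85.5 and 338 CPM), the epithelial markers (496 and 88.8) and the innate lymphoid markers (642 and 229) also differed between the libraries in that cluster, and the part of its makeup in these ratios and in those of the next paragraph was not tested. Gdf15 was at least 24.5-fold higher in capillary-like cells with 0 and 54 UMIs, where Ddit4 had a ratio of 2.89 (2 of 3). In HEV-like cells, with 2 and 521 UMIs, its ratio was 201 (55.4 to 1665), and Phgdh was 4.09-fold lower (1 of 15 in each direction), where the B cell markers fell as given above. Beside these counts, 2.35% of all genes were higher in arterial-like and capillary-like, 3.72% in sinus-like, 3.89% in proliferating endothelial, 4.45% in capillary-like and 2.77% in HEV-like cells. Gdf15 was also counted outside the gate, at 0.650 and 7.84 CPM in cells without Cdh5 against 11.6 and 791 CPM in endothelial cells. In B cell-like cells 2 and 66 UMIs, 0.128 and 6.51 CPM, gave a ratio of 50.9 (13.5 to 429), and the part of free RNA in the low values was not tested. In the vessels named above the carriers Slc3a2, Slc7a1 and Slc38a2 had ratios of 0.782, 0.828 and 0.895 (lymphatic capillary-like), 0.721, 1.10 and 0.859 (collecting-like), 2.28, 1.04 and 1.31 (arterial-like) and 1.89, 1.06 and 0.864 (venous-like). In the Prox1-positive against venous-like cells Gdf15 (2.66) and Vldlr (2.18) were higher and Nupr1 was 3.76-fold lower, of 13 measured, beside 3.34% of all genes higher and 6.26% lower (median 0.38 beside -0.01).

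Around cystine uptake, 2 of 8 measured glutathione and NRF2 genes were higher in venous-like cells, Hmox1 with a ratio of 3.30 (2.18 to 5.19) and Nqo1 with 3.00 (2.17 to 4.24), while Slc7a11 had 1 UMI in each library there and 3.60% of all genes were higher. The median log2 ratio of the list was 0.60 in venous-like and 0.49 in arterial-like cells, where Hmox1 (2.07) and Gclc (2.01) were past 2-fold among 7 (2.94% of all genes higher). Lymphatic capillary-like and collecting-like cells each had 2 of 10 higher, Nqo1 (3.16 and 2.23) and Srxn1 (2.09 and 2.24, the latter with an interval of 0.990 to 6.25 from 6 and 94 UMIs), with medians of 0.32 and 0.25, beside 4.82% and 6.44% of all genes. HEV-like cells had 2 of 11 higher, Hmox1 (3.71) and Srxn1 (2.37), and 1 lower, Ggt5 (3.06-fold), beside 2.77% and 1.66% of all genes. Arterial-like and capillary-like cells had 2 of 7 higher, Hmox1 (3.02) and Gclc (2.001), sinus-like cells 1 of 8, Nqo1 (4.54), and proliferating endothelial cells 3 of 10, Srxn1 (5.73), Nqo1 (4.02) and Hmox1 (3.14). Of all genes 2.35%, 3.72% and 3.89% were higher in these types. No gene of the list was past 2-fold in Prox1-positive against venous-like cells (0 of 10, median 0.37).

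Of the tonicity and taurine genes around Slc6a6, Nfat5, the transcription factor that responds to osmotic stress, was higher in Flcn iΔEC venous-like cells. It had 228 and 464 CPM, a ratio of 2.03 (1.81 to 2.29), while Slc6a6, a known target of that factor, was lower in the same cells, Prox1-positive cells left apart. It was the 1 of 6 measured genes past 2-fold there, beside 3.60% of all genes higher (median 0.40 beside -0.07), and 0 of 7 were in arterial-like cells (median -0.15). Csad, an enzyme of taurine synthesis, was 2.57-fold lower in lymphatic capillary-like cells (41.3 and 16.1 CPM), the 1 of 6 past 2-fold (median -0.16). The chaperone gene Hspa4l was 2.03-fold lower in collecting-like cells, again 1 of 6, where 6.28% and 6.83% of all genes were lower (median -0.17). Csad was 2.69-fold lower in the Prox1-positive than in the venous-like cells, where Slc6a6 was higher, also 1 of 6, beside 6.26% of all genes lower (median 0.43).

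All 10 transporters were placed on GRCm38 by their identifiers in GENCODE release M21, with Slc3a2 on chromosome 19 (8706882 to 8723369, minus strand) and Slc6a6 on chromosome 6 (91684053 to 91759066, plus strand). They lie on 10 chromosomes. Slc7a5, Slc7a11, Slc7a7 and Slc6a9 overlap genes on the other strand that were also counted (Gm20388, Gm37854, Oxa1l, and Ccdc24 with B4galt2). The sources used here do not state whether strand was used in counting, and without it reads of such partners cannot be told apart.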

How the data were processed

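Counts were taken from the deposited matrices, UMI counts per gene and cell barcode that the authors made with Cell Ranger 3.0 on mm10, as the submitters' processing notes say, from Chromium 3′ v3 libraries of 6814 and 4459 cells. All barcodes were kept. The 10 transporters and the lists around them were chosen with earlier results of these data known. Cells with at least 2 Cdh5 UMIs and cells with 0 were clustered apart in Seurat 5.3.0 (R 4.3.3), with 2000 variable features less the transporters and list genes (1982 and 1978 left), anchor integration of both libraries, 30 dimensions and resolution 0.8. A cluster took a name when at least 3 markers of a type were at least 2-fold above the other clusters and in at least 10% of its cells. Clusters with more leading genes from another type's markers, and shallow clusters with no marker among their leading genes, stayed unnamed. Limits for naming were set after clusters were seen. UMIs were summed per type and library and divided by all UMIs there. A ratio counted toward past 2-fold with at least 50 UMIs over both sides and at least 10 cells in each. Genes of each list past 2-fold between libraries in endothelial types, or between Prox1-positive and venous-like cells, were named, up to 8 per comparison, as were the 3 most similar genes (at least 200 UMIs). Alternatives were the cell filter, doublet removal by Scrublet (scanpy 1.11.5; 142 and 37 called), the CPM denominator, equal weight of cells, the Cdh5 gate, cells without Ptprc, no integration, resolutions 0.4 and 1.6, the count minimum, the fold and the thinning, and, chosen after seeing the data, leaving out the top cell and pooling the venous clusters. Code ran in Python 3.11.15 with numpy 2.4.6, pandas 2.3.3, scipy 1.17.1 and matplotlib 3.10.9, and was tested on simulated data. Genes with few UMIs, Slc38a5 and in vessels Slc7a5 and Slc7a11, have ratios with wide intervals or none.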

Additional observations from a re-analysis of the deposited data

How the results depend on the processing

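For the transporters, no direction of a ratio past 2-fold was reversed under the alternatives tried. Several of their ratios short of 2-fold crossed 1, among them those of Slc6a6 in capillary-like and sinus-like cells and of Slc7a1 in arterial-like and capillary-like cells, given above. For the list genes only the counts past the fold were rerun, not the ratio of each gene. Of the ratios computed under alternatives, 528 of 578 stayed within the counting interval of the value given in the text, as did 306 of 390 levels and 47 of 114 shares of cells. Counts of list genes past the fold moved in 112 of 480 cases, among them 37 of 96 at 1.5-fold, 37 of 96 at 4-fold and 21 of 96 at a minimum of 20 UMIs. With the mean of each cell's CPM, Slc6a6 in arterial-like and capillary-like cells was 1084 CPM (control) and 792 CPM (Flcn iΔEC), its ratio in venous-like cells was 0.375, the ratio of Prox1-positive to venous-like cells was 5.92, and ratios of endothelial cells to cells without Cdh5 were 6.70 in control and 3.16 in Flcn iΔEC cells, with 17.0 for Slc6a9 in Flcn iΔEC cells. A smaller CPM denominator, less mitochondrial, ribosomal protein and hemoglobin genes, raised Slc6a6 to 1201 and 834 CPM in arterial-like and capillary-like cells and to 747 and 1066 CPM in capillary-like cells, and gave ratios of endothelial cells to cells without Cdh5 of 3.22 and 2.04 for Slc6a6 and, in Flcn iΔEC cells, 0.118 for Slc7a5. A gate of at least 1 Cdh5 UMI gave 3.85 for Slc6a6 in control and 0.208 for Slc7a5 in Flcn iΔEC cells. Without the cell with the most Slc6a6, an alternative chosen after seeing the data, Flcn iΔEC levels of Slc6a6 were 573 CPM in arterial-like and capillary-like and 697 CPM in capillary-like cells. Pooling of the Prox1-positive with the venous-like cells, also chosen after seeing the data, gave a ratio of 0.956 for Slc6a6 in place of 0.492, since the pooled cells include those with the higher level. Integrated stress response genes higher in venous-like cells numbered 2 in place of 4 at a minimum of 100 UMIs, which leaves fewer genes measured, and 2 at 4-fold, as in collecting-like cells, where 2 in place of 4 passed 4-fold. Apart from the denominator, the count minimum and the fold, the cause was not tested. Some alternatives gave no value: without integration 1 Flcn iΔEC cell was named venous-like, 1 control cell was named lymphatic capillary-like and no cluster was named capillary-like, resolution 0.4 joined collecting-like to lymphatic capillary-like cells, and too few control sinus-like cells lacked Ptprc.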

Other observations

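Among the other amino acid transporters, Slc6a13, a carrier of GABA and taurine, had its highest levels in group 3 innate lymphoid-like cells, 355 CPM in control and 386 CPM in the Flcn iΔEC library, and in HEV-like cells, 124 and 106 CPM. Slc38a11 was highest in lymphatic collecting-like cells, with 15.8 and 42.3 CPM. In proliferating endothelial cells Nfat5 had 118 and 502 CPM, a ratio of 4.27 (3.71 to 4.93), while Slc6a6 had 143 and 131 CPM there. The makeup of that cluster differed between the libraries, with Prox1 at 85.5 and 338 CPM, the epithelial markers at a sum of 496 and 88.8 CPM and the innate lymphoid markers at 642 and 229 CPM, and their part in the ratio was not tested. In HEV-like cells Phgdh was 4.09-fold lower in the Flcn iΔEC library (25.2 and 6.15 CPM), where Gdf15 had 2 and 521 UMIs. The B cell markers of HEV-like cells went from 419 to 112 CPM alongside, and cells without Cdh5 had 87.6 and 88.6 CPM of Phgdh, so the part of lymphocyte RNA in the Phgdh value was not tested.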
